A study of Mus musculus with 3 samples.

Results

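The genes of the major histocompatibility complex (MHC) and of antigen presentation were described across the 3 arrays of a study of sarcomas driven by EWS/ATF1. The members were all genes with a symbol that starts with H2-, the mouse MHC symbol, together with Cd74, Ciita, Nlrc5, B2m, Tap1, Tap2, Tapbp, Psmb8, Psmb9 and Psmb10, where a probe set carried that symbol alone. This gave 39 of the 19938 genes measured, on 57 probe sets. They comprised 22 class I genes, 10 class II genes, 6 processing genes and H2-Ke6, which lies among the MHC genes and encodes an enzyme rather than an antigen-presenting chain. The choice used symbols and no measured value, but earlier results of these data were known when it was made.

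EWS/ATF1, the fusion protein of human clear cell sarcoma, carries a part of EWSR1 and the DNA-binding part of ATF1, which belongs to the CREB family of transcription factors. Each group held 1 array of total RNA. By the labels, the control array carried tumor cells cultured without doxycycline (0 microg/ml), and the high doxycycline array carried such cells 24 h after doxycycline was added at 0.2 microg/ml. The array labelled tumor, again by its label, carried a tumor resected from a mouse with inducible EWS/ATF1 that received doxycycline for 3 months. All came from soft tissue sarcoma of mice of mixed C57/BL6, 129 and ICR descent, and the sample descriptions give the number 1297 to both cultures and 1281 to the tumor. What these numbers count and what drives the transgene are not given in the sources used here. With 1 array a group no difference could be tested, no replicate check exists, and every fold below describes these arrays, whose number limits the precision. Folds were taken between values of intensity + 1, and at least 2-fold means a log2 difference of at least 1 on that scale.

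The array labelled control stood apart from the other arrays in a way that goes against its label. Lists of cell type markers were read beside the members. The sum of 7 fibroblast genes was 32571 on control, 1649 on high doxycycline, and 1974 on the tumor array. The sum of 5 skeletal muscle genes was 23371, 1297 and 1132 in that order, and all 12 genes of these lists were at least 2-fold dimmer on both other arrays than on control, where 5.55% and 6.82% of all genes were. The sum of 8 endothelial genes was 8880 on control, 1223 on high doxycycline, and 1145 on the tumor array, so the array labelled as a resected tumor held little endothelial signal and the one labelled as a culture the most. Whether labels and arrays were exchanged was not tested, and an exchange would change what each comparison with control or tumor stands for. Every comparison below is between arrays as labelled. Of 10 neural crest and clear cell sarcoma genes, 7, 8 and 9 lay above the array medians, which were 250.02, 226.7 and 219.8. The comparison of tumor with high doxycycline does not use the control array. Probe sets of 1 gene gave log2 differences that varied with a standard deviation of 0.50 between high doxycycline and control, 0.52 between tumor and control and 0.14 between tumor and high doxycycline. This spread, from 999 genes with several probe sets, compares probes read on the same RNA and holds no variation between samples of a group. Whether it reflects error alone or also transcripts that differ was not tested. The deposited values of tumor and high doxycycline were identical for 34.6% of all probe sets. For high doxycycline and control this held for 21.6%, and for tumor and control for 16.9%. Such pairs were kept in the spread, and why they were identical was not tested. The spread between samples of a group could not be measured.

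Class I molecules sit on nearly all nucleated cells and show peptides from inside the cell to CD8 T cells. Their heavy chain pairs with beta-2 microglobulin. The peptides are cut by the proteasome or its variant, the immunoproteasome, and carried into the endoplasmic reticulum by the transporter Tap1/Tap2. Class II molecules are dimers of an alpha and a beta chain, found mainly on dendritic cells, macrophages and B cells, and show peptides from endosomes to CD4 T cells. The invariant chain Cd74 holds the class II groove until it is degraded in endosomes. NLRC5 and CIITA are the transactivators of class I and class II genes and act through factors bound to the S, X and Y boxes of their promoters. Interferon-gamma induces both sets of genes.

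Promoter stretches of 4 members above the median on all arrays are shown because the X2 box, a part of the X box, is bound by CREB-family factors, the family of ATF1. The 4 include the only 3 of 27 members with a window in which TGACG is followed by ATTGG at the spacing given below. Other members above every median with a window lack that layout, so the 4 do not stand for bright members in general. The stretches are RefSeq sequences of GRCm38.p6, each read 5′ to 3′ on the strand of its gene and upstream of the start. Capitals mark the X2 core TGACG and the Y box ATTGG.
H2-Aa, chr17:34287859-34287919, minus strand: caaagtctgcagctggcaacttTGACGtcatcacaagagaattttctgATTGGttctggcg
H2-Eb1, chr17:34305760-34305820, plus strand: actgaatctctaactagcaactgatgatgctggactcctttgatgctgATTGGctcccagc
B2m, chr2:122147587-122147646, plus strand: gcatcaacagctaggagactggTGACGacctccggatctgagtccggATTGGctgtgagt
H2-M3, chr17:37270166-37270225, plus strand: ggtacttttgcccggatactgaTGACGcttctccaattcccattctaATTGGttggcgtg

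Windows from 250 bases before to 50 after the start were matched to 27 of the 38 class I, class II and processing genes. TGACG on either strand stood in 8 of 16 class I genes, 1 of 6 class II genes and 2 of 5 processing genes, against 20.8% of all 32851 windows. ATTGG stood in 14, 6 and 3 of them, against 37.4%. In 3 members, H2-Aa, B2m and H2-M3, TGACG was followed by ATTGG on the same strand, 26, 25 and 25 bases from start to start. An arrangement with 22 to 28 bases stood in 0.192% of all windows, a range set after these sequences were read. In H2-Aa the core is part of TGACGTCA, the palindromic cAMP response element, in which matches on both strands overlap. That octamer was found in 1.79% of windows and in no other member. The windows of Tap1 and Psmb9, which lie back to back, share 275 bases. They are the 2 processing genes with TGACG, and both hold ATTGG, so these can be 1 stretch counted for 2 genes. Members were counted once a gene, by a match in any of its windows, while the shares of all windows are per window. A match describes letters and does not show binding.

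Few members passed 2-fold between any pair of arrays, and those that did were dimmer than on control. Of the 22 class I genes 15, and of the 10 class II genes 5, lay below every array median, and for these the lack of a 2-fold difference says little. Between high doxycycline and control, 0 of 22 class I, 0 of 10 class II and 0 of 6 processing genes were at least 2-fold brighter on high doxycycline, where 10.6% of all genes were. At least 2-fold dimmer there were 1 class I gene (H2-M9), 1 class II gene (Cd74) and no processing gene, where 5.55% of all genes were. Between tumor and control none was 2-fold brighter on tumor, against 11.3% of all genes. Dimmer on tumor were H2-M9 in class I, Cd74 and H2-Ab1 in class II and Psmb10 in processing, against 6.82%. Over all genes 2245 were brighter and 1359 dimmer in that comparison, a split that became 2808 and 1048 after a shift of each array to a common median. Between tumor and high doxycycline no member passed 2-fold, where 2.05% of all genes did. In all, 2 of 38 members were dimmer on high doxycycline and 4 of 38 on tumor, shares near those of all genes.

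**Figure D1:**
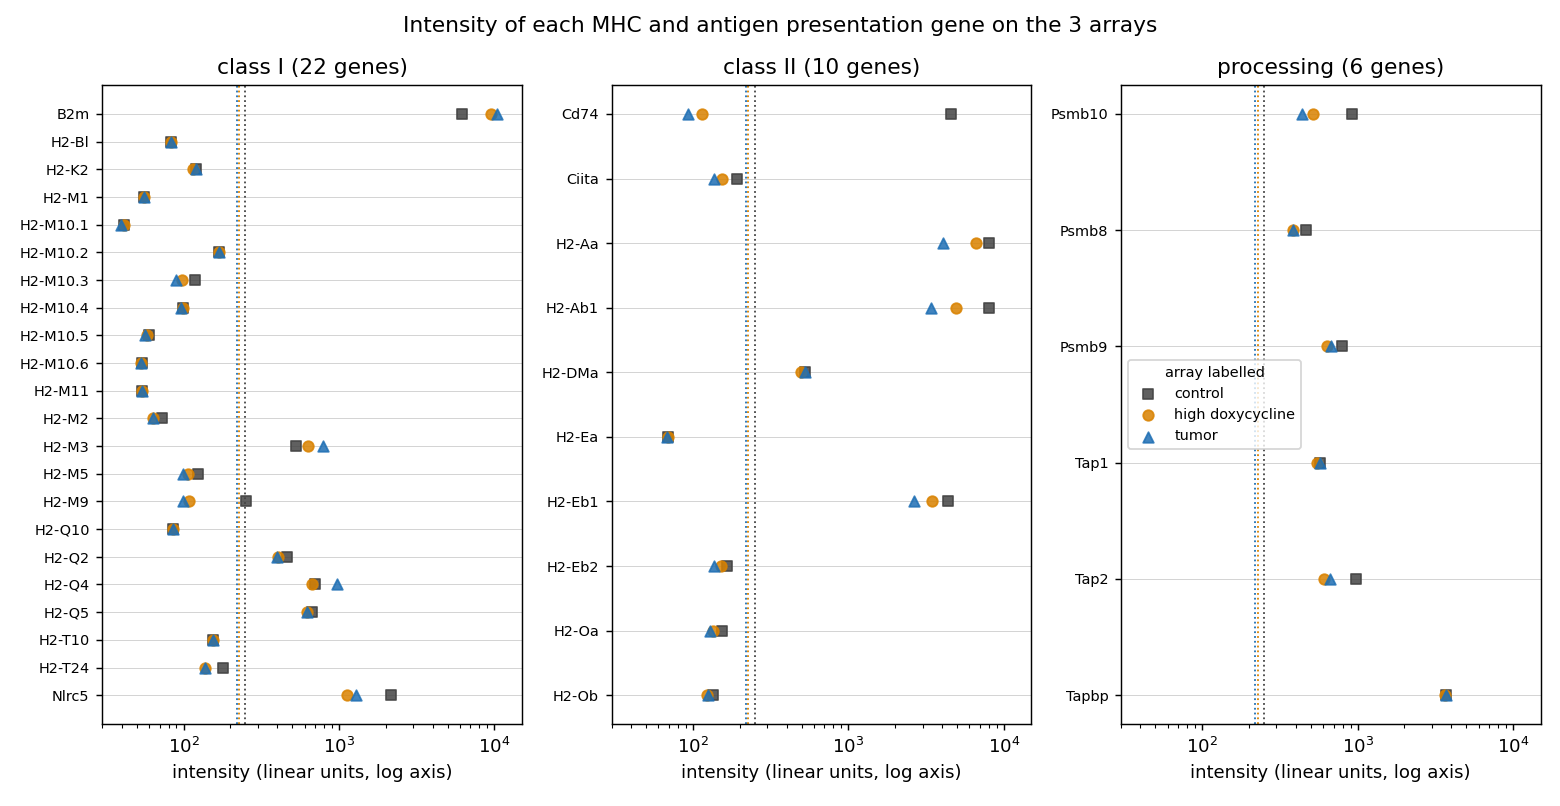
Intensity of the 22 class I, 10 class II and 6 processing genes on a log axis, with a square for the array labelled control, a circle for high doxycycline and a triangle for tumor; dotted lines give the array medians. Cd74 spans from 4577 on control to 93.4 on tumor, while the class II chains H2-Aa, H2-Ab1 and H2-Eb1 lie at 2653 or above on all 3 arrays.

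The class II chains H2-Aa, H2-Ab1 and H2-Eb1 were bright on every array. The alpha chain gene H2-Aa had intensities of 8004 on control, 6653 on high doxycycline, and 4080.2 on the tumor array. H2-Ab1, the beta chain that pairs with it in the I-A molecule, had 8071, 4949.8 and 3413. Both were brightest on control and dimmest on tumor. H2-Eb1, the beta chain of the I-E molecule, followed the same order with 4344, 3463 and 2653. Relative to high doxycycline, tumor was 1.63-fold dimmer for H2-Aa, 1.45-fold for H2-Ab1 and 1.31-fold for H2-Eb1. Of all genes, 2.21%, 3.32% and 5.13% were dimmer by at least as much. Relative to control, high doxycycline was 1.20-fold dimmer for H2-Aa, 1.63-fold for H2-Ab1 and 1.25-fold for H2-Eb1. Tumor was 1.96-fold, 2.36-fold and 1.64-fold dimmer than control for them. All of these differences kept their sign after a shift to a common median and after quantile normalization. Each of these genes was read by 1 probe set. With mice of mixed descent, how far the probes read different alleles unequally was not tested.

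Cd74, the invariant chain, did not follow the chains it escorts. Its intensity was 4577 on control, 114 on high doxycycline, and 93.4 on the tumor array. It lay far above the median of the control array and below the median of each of the others. The gene was 39.8-fold dimmer on high doxycycline and 48.5-fold dimmer on tumor than on control, and 0.055% and 0.03% of all genes were dimmer by at least as much. Between tumor and high doxycycline it differed 1.22-fold. Ciita, the class II transactivator, was below the array median everywhere, with 192, 154 and 138. Its log2 difference from control was -0.31 on high doxycycline and -0.47 on tumor.

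No gene for class II peptide exchange and no minor chain passed 2-fold in any comparison. H2-DMa, a chain of the H2-DM molecule that exchanges peptides on class II, had 525, 493 and 527 and lay above the median on all arrays. Its difference from control turned sign between the scalings, from -0.23 to 0.053 for high doxycycline and from -0.14 to 0.19 for tumor. One further probe set, annotated jointly to the near-identical copies of the DM beta chain and left out of the gene counts, had 367, 225 and 198. It was 1.63-fold dimmer on high doxycycline and 1.85-fold dimmer on tumor than on control. H2-Oa and H2-Ob, the chains of the H2-DO molecule that restrains H2-DM, had 154, 134 and 129.6 and 135, 123 and 124. H2-Eb2, a further beta chain gene, had 165, 151 and 137. H2-Ea, the I-E alpha chain, which mice of the b haplotype such as C57BL/6 do not make, had 69.4, 69.2 and 67.9. All 4 lay below the array medians, so the order of these values was not read. The median log2 difference over the 10 class II genes was -0.23 between high doxycycline and control, -0.37 between tumor and control and -0.15 between tumor and high doxycycline. Without dim genes the tumor values moved, to -0.97 against control, over 5 genes, and to -0.46 or -0.38 against high doxycycline, by the filter used. With a common median the 3 values were -0.090, -0.18 and -0.10. The medians over all genes were 0.00, -0.0039 and 0.00, and a shift to a common median moved those of the comparisons with control to 0.14 and 0.18.

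**Figure D2:**
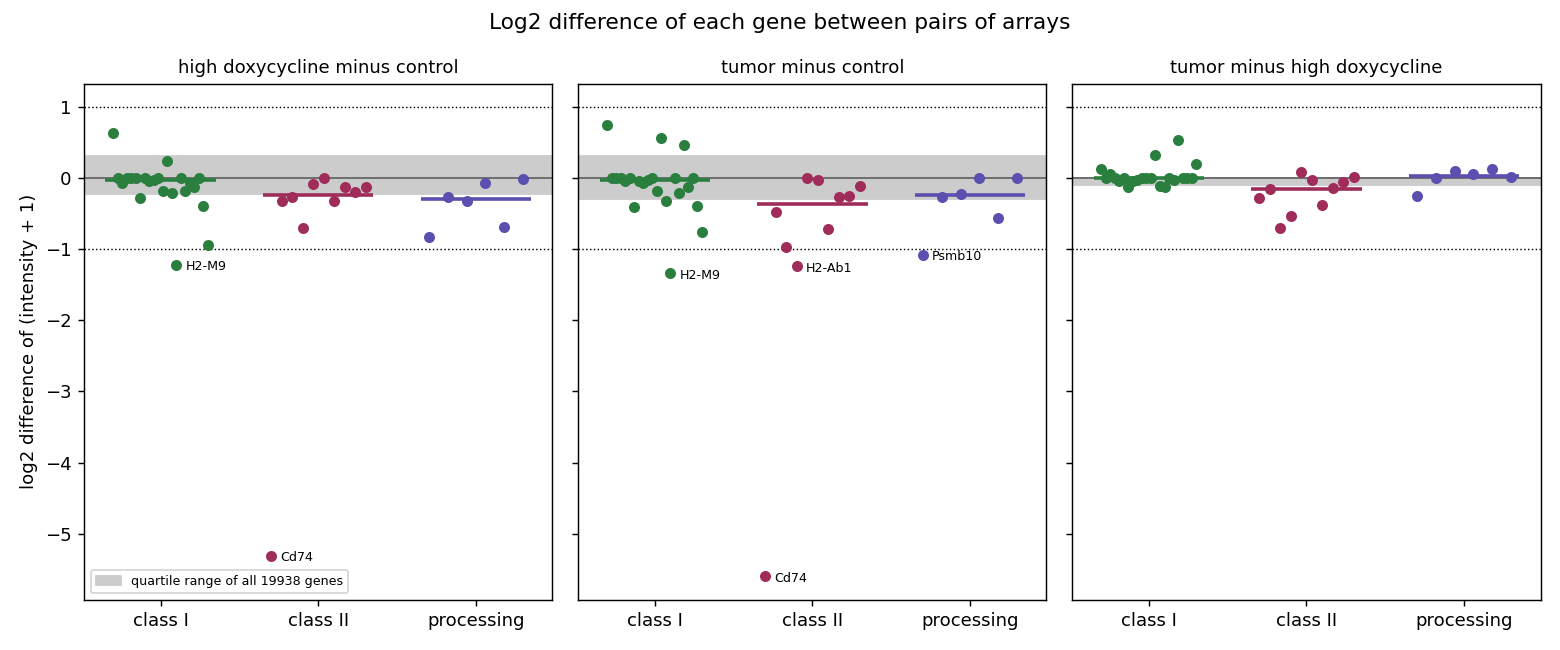
Log2 difference of (intensity + 1) of each member in the 3 comparisons, with the list median as a coloured bar, the range between the quartiles of all genes in grey and 2-fold as dotted lines. Cd74 at -5.32 and -5.60 lies apart from the other 9 class II genes, and no member passes 2-fold between tumor and high doxycycline.

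Markers of antigen-presenting cells were read beside class II. In such bulk RNA, fewer cells of a type and less RNA per cell cannot be told apart. Of 16 macrophage genes, 15, 2 and 1 were above the medians of control, high doxycycline and tumor, and their summed intensity was 28945, 2870.0 and 1777. The lysozyme gene Lyz2 had 3932, 68.0 and 64.8, and the complement gene C1qb and the mannose receptor gene Mrc1 had 5449, 104 and 89.2 and 3175, 78.9 and 74.3. Most of this list was dim on the arrays on which Cd74 was dim, while H2-Aa, H2-Ab1 and H2-Eb1 stayed bright there. Cd14, with 650, 914 and 158, was the 1 of 16 genes brighter on high doxycycline than on control. It lay above the medians of those 2 arrays, and was 5.75-fold dimmer on tumor than on high doxycycline. Of 11 dendritic cell genes, 4, 3 and 3 lay above the medians, with sums of 4130.1, 2356 and 1760.4. Batf3, a factor needed for cross-presenting dendritic cells, had 1992, 656 and 382, and the C-type lectin gene Cd209a had 279, 103 and 88.4. These were the 2 of 11 genes at least 2-fold dimmer on high doxycycline than on control, and 3 were on tumor. Of all genes 5.55% and 6.82% were. Most of the list was closer to level, with a median log2 difference from control of -0.16 on high doxycycline and -0.25 on tumor. Of 9 B cell genes, 1, 1 and 2 lay above the medians, with sums of 1246, 1524 and 1473. The higher sums rest on 1 gene, Pax5, a transcription factor of B cells, which had 305, 727 and 573. Of the 9 genes, 5 were dimmer and 1 brighter on high doxycycline than on control, and 3 were equal. The defining B cell genes Ms4a1 and Cd79a lay below the median on all arrays, with 76.6 and 57.3 as their highest values. Of 11 T and NK cell genes, 2, 1 and 0 were above the medians, with sums of 1573, 1234 and 1136. Cd4, a coreceptor of T cells that myeloid cells can also carry, had 343, 140 and 135. No value on these arrays was 0. The part of these cells in the class II values was not tested.

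Genes of class II processing in endosomes were split. Of 9 such genes, 3 were at least 2-fold dimmer and 1 brighter than control on both other arrays. Of all genes, 5.55% on high doxycycline and 6.82% on tumor were that much dimmer, and 10.6% and 11.3% that much brighter. Ctss, the cathepsin that removes the invariant chain in antigen-presenting cells, had 1391 on control and 88.9 on both high doxycycline and tumor, 15.5-fold dimmer. Ifi30, a lysosomal thiol reductase for antigens, had 3442, 1066 and 1285, and the cathepsin gene Ctsh had 1831, 679.6 and 679.6. Thus Ctss was below the array medians where Cd74 was, while Ifi30 and Ctsh stayed above them. Ctsl, which removes the invariant chain in thymic epithelium, had 4080 on control, 8281 on high doxycycline, and 9544 on the tumor array and was the brighter gene.

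**Figure D3:**
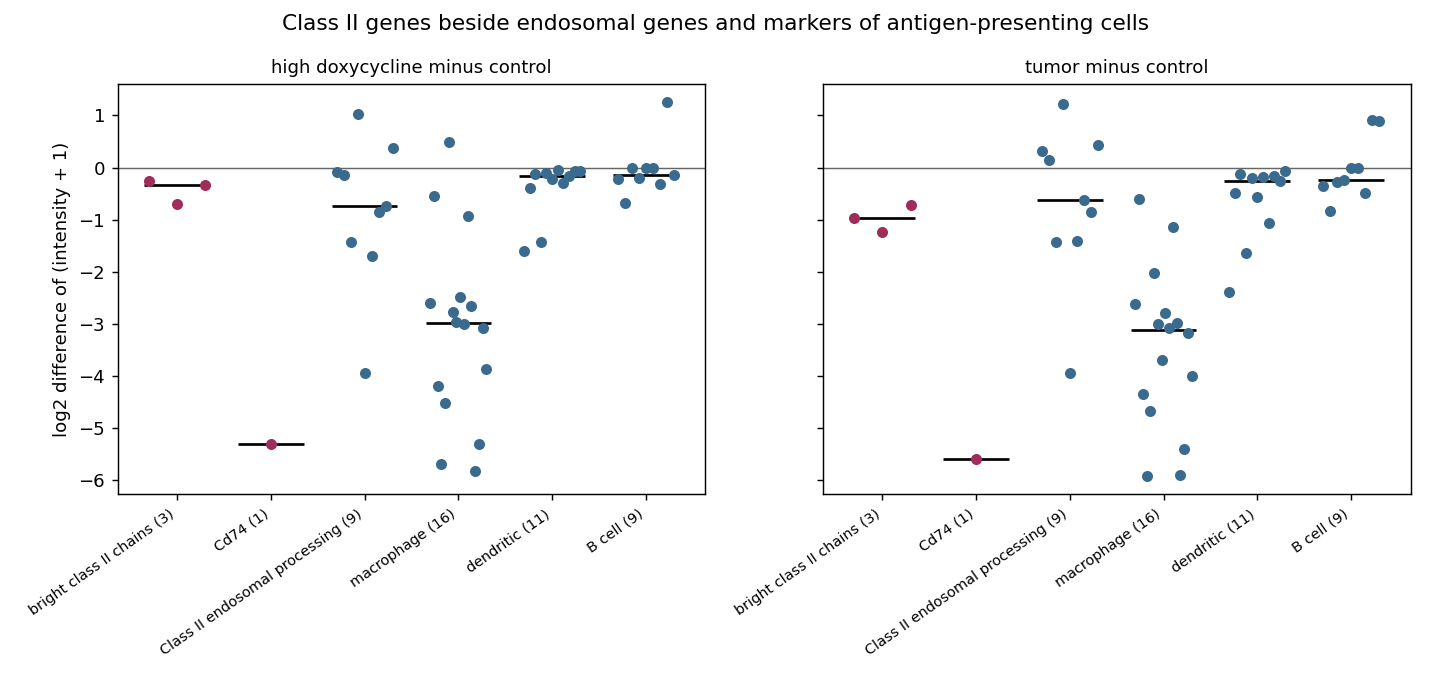
Log2 difference from the array labelled control for H2-Aa, H2-Ab1 and H2-Eb1 (grouped after their values were seen), Cd74, 9 endosomal genes, 16 macrophage, 11 dendritic and 9 B cell markers; each point is a gene and each bar a median. Cd74 lies among the lowest macrophage markers, and the class II chains lie between -0.27 and -1.24.

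Of 11 promoter factor genes of class I and class II, 10 lay above the median on control and all 11 on the other arrays. Rfx5, Rfxap and Rfxank, the subunits of the X box factor RFX, had 279.7, 496 and 722 on control, and each lay above the median on every array. Nfyb, a subunit of the Y box factor NF-Y, had 249.5 on control, just under the array median, 804 on high doxycycline and 671 on tumor. It was 3.21-fold brighter on high doxycycline and 2.68-fold on tumor than on control. Creb1 had 549, 1094 and 1264, and was 2.30-fold brighter on tumor than on control. No other of the 11 genes in this list passed 2-fold in any comparison. The shares of all genes at least 2-fold brighter were 10.6% on high doxycycline and 11.3% on tumor.

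Among class I genes, those for beta-2 microglobulin and H2-M3 were dimmest on control and brightest on tumor. B2m had 6171 on control, 9542 on high doxycycline, and 10405 on the tumor array, 1.55-fold and 1.69-fold above control. Of all genes, 17.5% and 15.3% were brighter by at least as much. H2-M3, a nonclassical chain that presents formylated peptides, had 529, 627 and 786, and tumor was 1.25-fold above high doxycycline. H2-Q4, a Q region class I gene, had 702, 670.1 and 976, and stood 1.46-fold higher on tumor than on high doxycycline, an increase that 2.81% of all genes matched or exceeded. For H2-Q4 tumor alone was high, while H2-M3 and B2m stood in the order control, high doxycycline, tumor. The sign was kept under both other scalings for B2m and H2-M3 in every comparison, and for H2-Q4 in those with tumor.

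H2-Q2 (462, 408 and 399) and H2-Q5 (673, 618 and 619.9) were also above the median on all arrays. Each differed by at most 1.16-fold between any pair of arrays. H2-M9 had 253 on control, just above that array's median, and 108 and 99.7 on the others, below their medians, a 2.32-fold and 2.52-fold difference. The remaining 15 class I genes were below the median on every array, with intensities from 39.8 to 180. These were H2-Bl, H2-K2, H2-Q10, H2-T10, H2-T24 and 10 of the 12 genes of the M series, each by the probe set of its own. Probe sets that H2-Bl and H2-T10 share with other genes were brighter and are given below. On their own probe sets the log2 differences of the 15 genes lay between -0.40 and 0.063. For 6 of the 15 the value was identical on all 3 arrays, as it was for 4314 of all 28856 probe sets. The class I median was -0.030 for high doxycycline against control and -0.030 for tumor against control, which became 0.11 and 0.15 with a common median and 0.070 and 0.12 with quantile normalization. It was 0.00 for tumor against high doxycycline.

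The classical class I chain genes had no probe set of their own. Of 8 probe sets annotated to several H2 symbols at once, 2 are shared by the classical chains. The first had 5901 on control, 8100 on high doxycycline, and 8954 on the tumor array, and the second had 3253, 4685 and 5676. Both were dimmest on control and brightest on tumor, the order of B2m. Among the 5 other class I sets, that of H2-T9, H2-T22 and H2-T10 had the same order with 1049, 1312 and 1856. So did that of H2-T23 and H2-T-ps, with 954, 1299 and 1520. Brightest on control were those of H2-Q6 and H2-Q8 (627, 361 and 423) and of H2-Q1 and H2-Bl (330, 270 and 270). The set of H2-T3 and H2-T18 had 83.6 on all arrays. Class I genes are near-identical copies and differ between strains, and how far probes read more than 1 copy or allele was not tested.

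Nlrc5, the class I transactivator, was read by 19 probe sets that disagreed. The brightest, used for the gene, had 2160.0 on control, 1122 on high doxycycline, and 1284 on the tumor array. Its log2 difference from control was -0.94 on high doxycycline and -0.75 on tumor, but the means over all 19 probe sets were -0.22 and 0.13. Relative to high doxycycline, 17 of the 19 probe sets were brighter on tumor, 1 was dimmer and 1 equal, with a mean of 0.35 (SD 0.36 over probe sets, which share their RNA). Of these, 2 passed 2-fold.

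**Figure D4:**
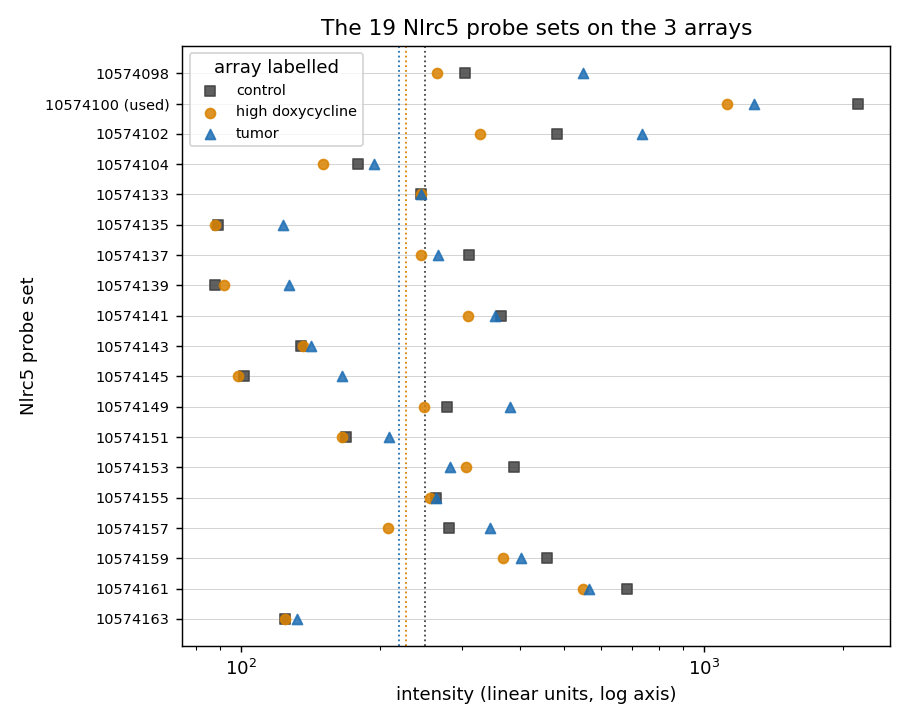
Intensity of each of the 19 Nlrc5 probe sets on the 3 arrays (log axis; dotted lines are array medians). Most triangles, the array labelled tumor, lie to the right of the circles, high doxycycline, by a mean log2 difference of 0.35.

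Processing genes lay above the median on every array. Tapbp, tapasin, which holds class I beside the peptide transporter, had 3696 on control, 3668 on high doxycycline, and 3696 on the tumor array. Tap1 had 574, 549.9 and 574. For both, the deposited values on control and tumor were identical, and high doxycycline lay within 1.04-fold of them. Tap2, the other transporter subunit, had 978, 606 and 661 and was 1.61-fold and 1.48-fold dimmer than on control. Psmb8 and Psmb9, catalytic subunits of the immunoproteasome, had 462, 386 and 386 and 790.0, 632 and 676. Psmb10, the third catalytic subunit, had 920.0, 517 and 436, and was 1.78-fold dimmer on high doxycycline and 2.11-fold dimmer on tumor. Each of Tap2, Psmb8, Psmb9 and Psmb10 was brightest on control under all 3 scalings. For Psmb10 the log2 difference of -1.08 between tumor and control became -0.89 with a common median. The list medians were -0.29, -0.24 and 0.037 in the 3 comparisons. H2-Ke6 had 674, 649 and 649.

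As deposited, the constitutive catalytic subunits did not share this order. Psmb5, whose place Psmb8 takes in the immunoproteasome, had 3364 on control, 7774 on high doxycycline, and 7211 on the tumor array, 2.31-fold and 2.14-fold brighter. Psmb6 and Psmb7, replaced by Psmb9 and Psmb10 in the immunoproteasome, had 2297, 2689.8 and 2297 and 2440.2, 2472 and 2344. Both were nearly level across the arrays. Psme3 and Psme4, proteasome activators, had 1108, 4003 and 3673 and 689, 1501 and 1494. With Psmb5 these were the 3 of 8 listed genes that passed 2-fold, all brighter than on control on both arrays, where 10.6% and 11.3% of all genes were. Psme1 and Psme2, the subunits of the activator induced by interferon-gamma, had 1958, 1422 and 1422 and 1721, 1589 and 1418, and were brightest on control. Of 10 genes of protein folding and peptide trimming in the endoplasmic reticulum none passed 2-fold in any comparison, and the largest difference from control was that of Canx, the chaperone calnexin, with 5852, 9039.6 and 9039.6.

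Interferon-gamma itself was dim, with Ifng at 158 on all 3 arrays, under each median. Its receptor gene Ifngr1 was at 1639 on all 3. Of 12 measured genes of the interferon-gamma pathway none was 2-fold brighter and 2 were 2-fold dimmer on both arrays than on control. Of all genes, 10.6% and 11.3% were brighter and 5.55% and 6.82% dimmer. They were Irf8, a factor of myeloid cells, with 512, 181 and 181, and the feedback inhibitor gene Socs3, with 2167, 732 and 951. Of 10 measured interferon-gamma target genes, Wars had 969.99, 2965 and 2387 and was the 1 gene 2-fold brighter on both arrays. Cd274, which encodes the T cell inhibitor PD-L1, had 326, 827 and 637, 2.53-fold brighter on high doxycycline and 1.95-fold on tumor. The chemokine gene Cxcl9 had 246, 122 and 107, 2.01-fold and 2.28-fold dimmer than on control, and lay below every array median. Of the 10 genes, 6 lay below the median on every array, and the list median includes these dim genes. It was -0.44 for high doxycycline and -0.40 for tumor against control. The 4 genes above every median were split. Wars, Cd274 and Irgm1 (458, 557 and 663) were brighter than control on both arrays, and Icam1 (433, 276 and 276) was dimmer.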

How the data were processed

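The arrays are of the Affymetrix type MoGene-1_0-st-v1, per the labels' descriptions. The deposited table holds 1 intensity per probe set on a linear scale (28856 probe sets); the background correction, summarisation and normalization by the authors are not given in the sources used here. Gene names come from the platform annotation. The 21789 probe sets with 1 symbol gave 19938 genes, those with several (1621) or none (5446) were left out, and the probe set with the highest mean stood for a gene. Symbols of all 39 members matched RefSeq (GRCm38.p6) by Entrez number. Differences are log2(intensity + 1) values, so folds of dim genes are understated. Counts and medians cover all measured members with no brightness filter, and a log2 difference of at least 1 was counted. Every class II and processing member is named, with class I members past 2-fold or above all array medians. From each pathway list up to 5 members with the largest differences are named, and some others for their role or brightness. Marker lists are given by counts and sums, and single markers were chosen after their values were seen. Members and lists were chosen with earlier results of these data known. Alternatives were a common median, quantile normalization, 2 brightness filters, the mean of probe sets, genes with 1 probe set, and pseudocounts of 16 and 64. The counting of 2-fold differences was tested on simulated data with added differences beyond 2-fold. Its noise was smaller than the spread between probe sets in the comparisons with control. It therefore checks the code and says nothing of the error of these arrays. Python 3.11.15, numpy 2.4.6 and pandas 2.3.3 were used.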

Additional observations from a re-analysis of the deposited data

Results flagged for a closer look

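A probe set shared by the classical class I chains lies outside the gene counts because its annotation holds several symbols. It was flagged by a rule on its own values. The rule asked for signal above the median on both other arrays. It also asked for a difference from control above the spread between probe sets of a gene, 0.50 and 0.52. Being brighter on both arrays than on the array labelled control is thus part of the rule. Its log2 difference was 0.53 for high doxycycline and 0.80 for tumor against control, and under the 3 scalings between 0.29 and 0.67 for high doxycycline and between 0.62 and 0.99 for tumor. The share of all genes brighter than control by at least as much as deposited lay between 19.3% and 19.7% on high doxycycline. On tumor it lay between 12.9% and 15.3%. The other probe set of these chains differed by 0.46 and 0.60, short of the rule on high doxycycline. The spread between samples is unknown with 1 array a group.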

How the results depend on the processing

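Of 144 alternative values for the medians and counts of the 3 groups of genes, 129 counted as unmoved. They stayed within the spread between probe sets of a gene or within 1.5 times the count. Much of this was fixed in advance. Only Nlrc5 has several probe sets, so settings on probe sets could not move class II or processing values. Against control the spread, 0.50 and 0.52, exceeded every list median as deposited. The class I medians changed sign there with a common median and still counted as unmoved. The 15 values that moved follow. The class I count past 2-fold against control, 1 in both comparisons, became 2 with quantile normalization and 0 with a filter on the mean over the arrays or a pseudocount of 64, on high doxycycline and on tumor alike. The processing count became 1 with quantile normalization on high doxycycline, and 0 with a common median or a pseudocount of 64 on tumor. Filters that leave out dim genes moved medians. For tumor against high doxycycline the class I median became 0.16 under both filters, over 6 genes, and the class II median became -0.46 with the filter on the brighter array and -0.38 with the filter on the mean. For tumor against control the class II median became -0.97 under both, over 5 genes. Among single genes, Cd74 moved to -4.70 and -4.88 with a pseudocount of 64, and Nlrc5 moved in all comparisons as a mean over probe sets. No difference past 2-fold changed sign. No paired analysis was possible because each group has 1 array. A filter changes which genes enter a count or median and leaves the value of each gene as it was. For the scalings, the pseudocount and the mean of probe sets the cause of the moves was not tested.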

Other observations

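Class I-like genes outside the MHC symbols were split. Mr1, which presents metabolites of microbes to MAIT cells, had 1275 on control against 2042 and 3046 on high doxycycline and tumor, 2.39-fold brighter on tumor than on control. Procr, the protein C receptor with a class I-like fold, had 9831, 5464 and 1704 and was 3.21-fold dimmer on tumor than on high doxycycline. It was the 1 of 7 such genes past 2-fold between those arrays, where 2.05% of all genes were. Cd1d1 and Cd1d2, which present lipids, lay below the median on every array.

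Co-stimulation genes were dim. Of 8 measured, 7 lay below the median on all arrays, among them Cd80 and Cd86, the ligands of CD28 on antigen-presenting cells, with highest values of 177 and 123 on control. Cd40 had 403, 279 and 262. None of the 8 passed 2-fold in any comparison.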
